A study of Mus musculus with 16 samples.

Results

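Of the 37648 open regions found in bone marrow-derived macrophages across vehicle, LXR agonist, LPS and combined treatment, 907 (2.41%, Wilson 95% interval 2.26 to 2.57%) held a peak after LPS alone and no peak in any of the other treatments. They were chosen by presence in the 4 deposited peak lists, after peaks sharing at least 1 bp were merged, as the regions with a peak in the LPS list only. They made up 2.78% of the 32631 regions with an LPS peak. A further 1011 regions held a peak in the LPS and the T0-LPS lists and none without LPS. Regions that appeared with LPS were thus absent from the T0-LPS list in 907 of 1918 cases (47.3%, interval 45.1 to 49.5%), and in 735 of 2054 (35.8%) when the lists were shortened to equal length. Shortening dropped the weakest peaks of the longer lists, so that a region with a weak Veh peak could then count as appearing with LPS. In the other direction, 296 of 1307 regions with a T0-LPS peak and none without LPS (22.6%, interval 20.5 to 24.99%) had no LPS peak. This share is for the full lists only, in which the LPS list is longer than the T0-LPS list. It was not computed at equal length, so the shares of the 2 directions are not on a like footing. These 907 are called lost regions and the 1011 kept regions hereafter, and both together LPS-opened regions. All of these names stand for presence in the lists. Among all regions with an LPS peak, 3254 (9.97%) had no T0-LPS peak. Since presence in the lists chose the lost regions, these counts and the LPS scores below are a description and were not tested.

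Lipopolysaccharide (LPS), a component of the bacterial outer membrane, is sensed by Toll-like receptor 4 (TLR4), which activates NF-kB, AP-1 and interferon regulatory factors. In macrophages these factors act together with the lineage factors PU.1 and C/EBP, and some enhancers that are closed at rest become accessible only after stimulation. The liver X receptors (LXRs) are nuclear receptors that sense oxysterols, induce cholesterol efflux genes such as Abca1 from DR4 elements and repress many inflammatory genes.

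Open chromatin was mapped by ATAC-seq, where Tn5 transposase cuts and tags accessible DNA, in 16 libraries of 50000 macrophages each, grown from bone marrow of C57BL/6J mice (females, 8 to 10 weeks old per the study's methods). On day 8 the 4 Veh and 4 LPS cultures received DMSO. The 4 T0 and 4 T0-LPS cultures received 500 nM T0901317 (T0), a synthetic agonist of LXR. All were kept so for 3 h, when Veh and T0 cells were collected. The other groups stayed for 2 h more in the same medium, with LPS added at 10 ng/mL. T0 or DMSO was thus also present during these 2 h. LPS cannot be told apart from the longer culture and the longer exposure to T0 or DMSO. All groups were serum-deprived beforehand. The authors called peaks on the pooled libraries of a group and kept those at macrophage enhancers, which left 35551 peaks for Veh, 29839 for T0, 33181 for LPS and 31085 for T0-LPS. With 1 pooled list per group there was no replicate to test against, so p-values are not given and all intervals cover counting error over regions only. A region open in fewer cells cannot be told apart from a region less open in every cell. A peak of all 4 lists lay within 1 kb of the transcription start site (TSS) of each of 12 macrophage genes, such as Csf1r and Adgre1. Of 14 genes of other lineages, 1 had such a peak in Veh, T0 and T0-LPS (Ms4a1) and 2 in LPS (Ms4a1 and Epcam), the peak at Epcam being a lost region with a score of 51.

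The sequences of lost regions at a pair of cytokine genes are shown first because of the place of these genes in the response to LPS, a choice made after their values were seen. Ifnb1 encodes interferon beta, the first interferon made after TLR4 stimulation, and Il1b encodes the cytokine interleukin-1 beta. Sequences are the 200 bases at the centre of the LPS peak, plus strand, from the RefSeq GRCm38 genome. Capitals mark matches to the 10-letter NF-kB consensus on either strand.
Ifnb1 upstream, chr4:88522780-88522979: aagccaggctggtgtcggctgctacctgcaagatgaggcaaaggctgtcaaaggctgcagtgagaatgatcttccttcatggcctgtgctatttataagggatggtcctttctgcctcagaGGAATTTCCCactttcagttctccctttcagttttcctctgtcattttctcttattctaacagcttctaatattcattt
Il1b upstream, chr2:129380856-129381055: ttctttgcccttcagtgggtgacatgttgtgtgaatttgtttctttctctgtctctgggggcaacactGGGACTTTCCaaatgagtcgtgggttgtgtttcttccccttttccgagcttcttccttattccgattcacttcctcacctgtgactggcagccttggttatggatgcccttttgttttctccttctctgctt

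The lost region at Ifnb1 (chr4:88522781-88522979) lay 106 bp upstream of the TSS, with its NF-kB match 26 bp from the peak centre on the side away from the gene. It had an LPS score of 166, at percentile 22.5 of the LPS list. The lost region at Il1b (chr2:129380844-129381067) was intergenic, 9.82 kb upstream of the TSS, with an LPS score of 106 at percentile 7.97. The score is the authors' peak caller score and ranks peaks within a list.

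The 8 lost regions of highest LPS score that held an NF-kB match, among those where no other list left room for a removed peak (a property explained below), are shown next. Where the 200 bases reached an untranslated region, only the match and 10 bases on each side are given.
Intron of Gm37168, chr1:191280840-191281039: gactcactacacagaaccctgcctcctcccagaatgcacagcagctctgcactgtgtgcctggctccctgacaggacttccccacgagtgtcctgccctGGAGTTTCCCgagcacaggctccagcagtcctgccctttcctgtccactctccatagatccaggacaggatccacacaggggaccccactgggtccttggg
Intron of A530072M11Rik, chr4:16168514-16168713: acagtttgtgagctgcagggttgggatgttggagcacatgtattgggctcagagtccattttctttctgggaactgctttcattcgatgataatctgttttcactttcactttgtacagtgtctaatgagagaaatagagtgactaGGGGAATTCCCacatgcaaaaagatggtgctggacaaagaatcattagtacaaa
Intron of Rbm47, chr5:66088767-66088966: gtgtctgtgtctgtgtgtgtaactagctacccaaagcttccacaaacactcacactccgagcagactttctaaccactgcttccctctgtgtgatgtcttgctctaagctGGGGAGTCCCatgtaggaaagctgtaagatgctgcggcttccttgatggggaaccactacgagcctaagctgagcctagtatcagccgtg
Intergenic, chromosome 14, chr14:70367715-70367914: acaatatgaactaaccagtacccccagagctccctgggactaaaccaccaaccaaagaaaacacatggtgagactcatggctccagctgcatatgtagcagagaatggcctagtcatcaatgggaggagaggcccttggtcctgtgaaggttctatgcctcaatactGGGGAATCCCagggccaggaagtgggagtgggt
Upstream of Nxn, chr11:76399160-76399189: gaggctgagaGGGGAGCCCCgcccaccggg
Intron of Il21r, chr7:125607901-125608100: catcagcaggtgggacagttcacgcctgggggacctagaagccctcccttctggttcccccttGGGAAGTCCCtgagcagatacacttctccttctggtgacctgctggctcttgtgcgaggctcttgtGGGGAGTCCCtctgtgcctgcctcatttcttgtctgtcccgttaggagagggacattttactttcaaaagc
Intergenic near Sema3b, chr9:107612210-107612409: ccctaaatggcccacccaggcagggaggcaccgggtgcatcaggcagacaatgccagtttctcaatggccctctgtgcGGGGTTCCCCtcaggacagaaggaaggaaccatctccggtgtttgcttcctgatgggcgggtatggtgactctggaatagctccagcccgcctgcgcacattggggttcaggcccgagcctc
Untranslated region of Sys1, chr2:164456943-164456972: ccccactactGGGGCTTTCCcagaggcagg

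Their LPS scores ran from 188 in the intron of Gm37168 down to 129 at Sys1. Il21r, which encodes the receptor of interleukin-21, held 2 separate matches in this window, at -32 and 34 bp from the centre. The remaining windows held 1 match each, the pair of overlapping matches in A530072M11Rik being counted as 1.

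For comparison, the 2 highest-scoring lost regions of this kind with no match to the 10-letter NF-kB consensus lay in introns of Gcnt1, a glycosyltransferase gene, and Stil, a gene of centriole duplication, with LPS scores of 254 and 213. The capitals mark matches to AP-1, C/EBP, interferon response, PU.1 or STAT motifs. The Gcnt1 window held a C/EBP match and the Stil window held none of them, but held a match, not marked, to a shorter NF-kB consensus (GGANTTNCC) used below.
Intron of Gcnt1, chr19:17337142-17337341: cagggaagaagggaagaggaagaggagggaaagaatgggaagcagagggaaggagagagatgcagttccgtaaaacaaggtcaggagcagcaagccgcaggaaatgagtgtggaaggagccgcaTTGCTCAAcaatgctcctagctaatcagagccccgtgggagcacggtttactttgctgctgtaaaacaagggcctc
Intron of Stil, chr4:115000573-115000772: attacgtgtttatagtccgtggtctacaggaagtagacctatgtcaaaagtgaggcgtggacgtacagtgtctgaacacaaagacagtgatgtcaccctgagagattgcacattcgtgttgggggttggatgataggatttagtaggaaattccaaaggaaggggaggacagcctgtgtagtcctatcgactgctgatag

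Lost regions were weak in the LPS list itself. Their median LPS score was 104 (order-statistic 95% interval 103 to 106), with the middle 50% between 83 and 129, against 160 (interval 155 to 168) for kept regions and 324 for all regions with an LPS peak. Of the lost regions, 567 (62.5%) stood in the lowest score decile of the LPS list and 860 (94.8%) in its lowest 3 deciles, where 65.7% of kept regions stood. The median width of the LPS peak was 210 bp in lost and 277 bp in kept regions. The share lost among LPS-opened regions fell with the score, from 74.7% (interval 70.9 to 78.1%) below 100 to 53.7% between 100 and 149, 29.1% between 150 and 199 and 11.4% (43 of 378, interval 8.56 to 14.97%) from 200 upwards. Kept regions were also placed lower in the T0-LPS list, at a median percentile of 14.8 against 21.5 in the LPS list, and 697 of 1011 (68.9%) ranked lower in T0-LPS. The T0-LPS list is shorter, so that an unchanged peak could rank lower there as well.

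**Figure D1:**
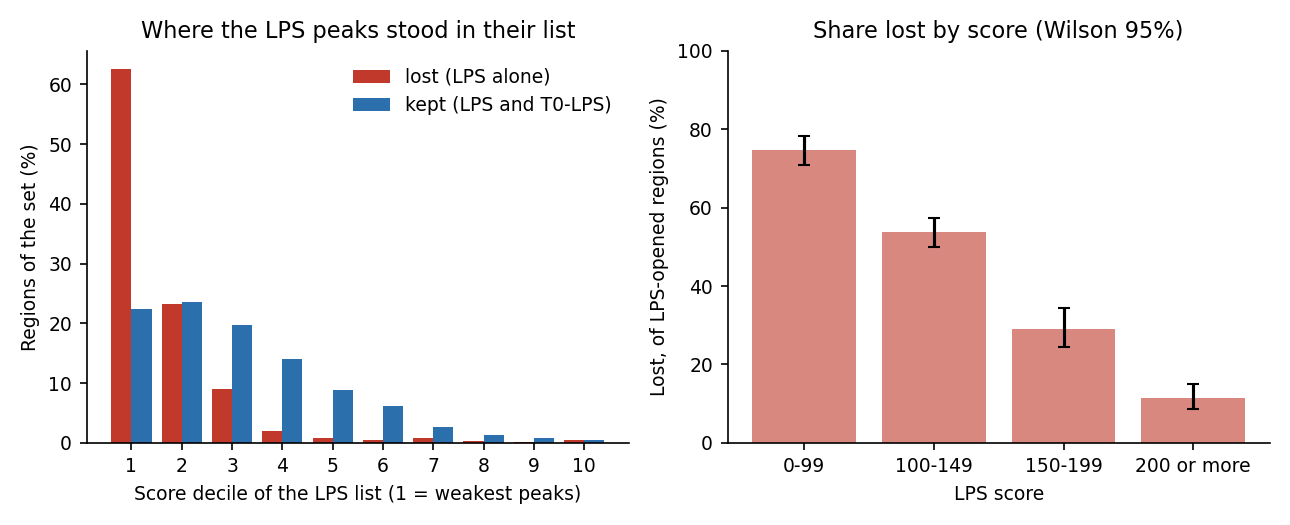
Left, share of lost (red) and kept (blue) regions in each score decile of the LPS list, from the weakest peaks (1) to the strongest (10). Right, lost regions as a percentage of all LPS-opened regions by LPS score, with Wilson 95% intervals. Most lost regions (62.5%) sat in the lowest decile, and the share lost fell from 74.7% to 11.4% with rising score.

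For many lost regions, including nearly all of the strongest, the lists could not tell a peak that was never called from a peak that was filtered out. Peaks carry running numbers along each chromosome. These were read as given at peak calling, in which case each gap in the numbers marks a peak that was called and then filtered out as lying outside enhancers. In the T0-LPS list, numbers were missing between 22.6% of neighbouring peaks. No number was missing around 454 of the 907 lost regions (50.1%, interval 46.8 to 53.3%) in any of the 3 other lists, which left no room for a removed peak. Room was left in the Veh list at 354 (39.0%), in the T0 list at 312 (34.4%), in the T0-LPS list at 339 (37.4%) and in all 3 lists at 228 (25.1%). Of the 1011 kept regions, 596 had no room in Veh and T0. Where Veh or T0 had room, a lost or kept region may have held a peak there that was filtered out. Its opening with LPS is then not settled by the lists. At the 21 lost regions that reached the median score of the LPS list (319), the T0-LPS list had room in all 21 and all 3 lists had room in 19. Among the 43 with a score of at least 200, 2 had no room, against 452 of 864 (52.3%) below 200. Scores of lost regions with no room ranged from 39 to 254, with a median of 101.

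The highest score among lost regions, 1259 at percentile 98.9, belonged to an intergenic region 51.3 kb downstream of the TSS of Ptgs2 (chr1:150151024-150151731), the gene of cyclooxygenase-2, with 3 numbers missing in each other list. It was followed by an intron of Pld1, a phospholipase D gene (chr3:28012089-28012582, score 1055), an intergenic region 52.8 kb upstream of Mbp (chr18:82422025-82422607, score 931) and an intergenic region on chromosome 6 (chr6:17409677-17410345, score 926). An intron of Wdr59, which encodes a subunit of a regulator of mTORC1, had a score of 859 (chr8:111477707-111478111). A region 70 bp from the TSS of Rbmx2 had a score of 700 (chrX:48694625-48695244). The next 4 had scores between 465 and 577 and included an intron of Col19a1, a collagen gene. All 10 had missing numbers in all 3 other lists, and 2 of the 10 held an NF-kB match.

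Of the 10 highest-scoring lost regions with no room in any list, 9 lay in introns and 3 within 1 kb of a TSS. After Gcnt1 and Stil they were an intergenic region 1133 bp from a TSS of Zfp639 (score 197), the intron of Gm37168 shown above (188), introns of Ostc (188), Ptger3 (186), Espl1 (181), Zfp52 (178), Aff1 (178) and Rgs9 (175). Ptger3 encodes a receptor of prostaglandin E2, and Ostc a subunit of the oligosaccharyltransferase. Of these 10 regions, 1 held an NF-kB match. Their percentiles in the LPS list, 39.9 at most, were all below the median peak.

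At the edge of the rule, the smallest gap from a lost region to a peak of another list was 24 bp, and 28 lost regions (3.09%) had such a peak within 100 bp. A single LPS peak, with a score of 88, was shut out by a shared stretch of 20 bp or less, which was 1 bp. The lowest LPS score was 39 in the lost regions and 31 in the list. The smallest peak width of the list was that of 111 lost regions.

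Lost regions lay near a TSS more often than kept regions. The midpoint was within 1 kb of a TSS in 268 of 907 lost regions (29.5%, interval 26.7 to 32.6%) and in 185 of 1011 kept regions (18.3%), a difference of 11.2 percentage points (Newcombe 95% interval 7.44 to 15.05). Of the 296 regions with a T0-LPS peak alone, 38.5% did so, and of the other regions with an LPS peak 40.3%. Near-TSS shares fell with score in lost and kept regions, so the sets were also compared within score ranges. There the difference was 7.87 points below a score of 100 (interval -1.38 to 16.3), 2.31 between 100 and 149 (-4.18 to 8.68), 6.66 between 150 and 199 (-2.35 to 17.1) and 0.285 from 200 upwards (-7.32 to 13.5). Each of these intervals included 0. Among 162 listed inflammatory genes, a lost region lay within 1 kb of the TSS of Ifnb1, Il12a, Gadd45b, Gbp2 and Relb. A kept region did so at Acod1, Bcl3, Ddx58, Gbp3, Icam1, Isg15, Nos2, Tnfsf9 and Tnip1. The lost regions at Il12a and Gbp2 had room in all 3 other lists, and that at Ifnb1 in T0-LPS. Of 21938 protein-coding genes, 206 had a lost and 132 a kept region within 1 kb of the TSS.

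By annotation, the midpoint of 503 lost regions (55.5%) was in an intron, of 276 (30.4%) between genes, of 66 (7.28%) in an untranslated region and of 62 (6.84%) in another exon. Exons took 2.87% of kept regions, a difference of 3.97 points (interval 2.06 to 5.99), and intergenic sequence 36.4%, a difference of -5.97 points (-10.2 to -1.74). Within each of the 4 score ranges the intervals of both differences included 0, and the intergenic difference turned to 8.601 points from 200 upwards. The median GC content of the central 200 bp was 49% in lost and 47% in kept regions. The nearest Veh peak was at a median distance of 2139 bp from lost regions (interval 1809 to 2609) and 2804 bp from kept regions (2395 to 3208). A Veh peak lay within 1 kb of 37.5% of lost and 28.8% of kept regions, but the difference was 8.44, 5.38, -3.61 and -7.84 points in the score ranges from lowest to highest, with each interval including 0.

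Of the motifs searched, the NF-kB consensus differed most between lost and kept regions. It was found in the central 200 bp of 97 of 907 lost regions (10.7%, interval 8.85 to 12.9%), in 252 of 1009 kept regions on the main chromosomes (24.98%, interval 22.4 to 27.7%) and in 4.78% of all regions with an LPS peak. Lost regions were thus 14.3 points below kept regions (difference -14.3, interval -17.6 to -10.9) and 6.09 points above the other regions with an LPS peak (interval 4.22 to 8.28). The share was 8.84% in regions with a T0-LPS peak alone, a difference from lost regions of 1.85 points whose interval (-2.37 to 5.35) included 0. At least 2 separate matches were found in 5 lost regions (0.551%) and 24 kept regions (2.38%).

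Kept regions had higher LPS scores, and the NF-kB share was higher above a score of 150 in both sets, so the comparison was repeated within score ranges. Below a score of 100 the share was 9.83% in lost and 16.8% in kept regions, a difference of -6.96 points (interval -14.5 to -0.7001). Between 100 and 149 it was 9.02% against 16.5% (difference -7.49, interval -12.6 to -2.49), and between 150 and 199 it was 17.6% against 25.7% (difference -8.09, interval -16.996 to 2.42). From 200 upwards it was 18.6% (8 of 43) against 35.8% (difference -17.2, interval -27.5 to -2.36). With the shorter consensus GGANTTNCC, the difference over all regions was -11.5 points (interval -14.7 to -8.29), but within score ranges it was -4.80 below 100 (interval -11.6 to 0.429), -1.81 between 100 and 149 (-6.85 to 3.08), -5.79 between 150 and 199 (-14.2 to 4.26) and -19.2 from 200 upwards (-28.2 to -5.02). The interval thus excluded 0 in every range but 1 with the 10-letter consensus and in the highest range alone with the shorter consensus. Other LPS regions of these ranges held the 10-letter consensus in 2.16% to 4.47%. In the highest range, peak numbers were missing from the T0-LPS list around 40 of the 43 lost regions. For those 40, a peak never called cannot be told apart from one filtered out, which limits both differences of that range. Over 1 kb from a TSS, 10.3% of lost and 25.6% of kept regions held the motif (difference -15.3, interval -19.0 to -11.4), and within 1 kb 11.6% and 22.2% (difference -10.6, interval -17.9 to -3.65). These 2 differences are over all scores. Within score ranges, the interval over 1 kb from a TSS excluded 0 only between 100 and 149 (difference -9.57, interval -15.3 to -4.04). Within 1 kb of a TSS it included 0 in every range.

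**Figure D2:**
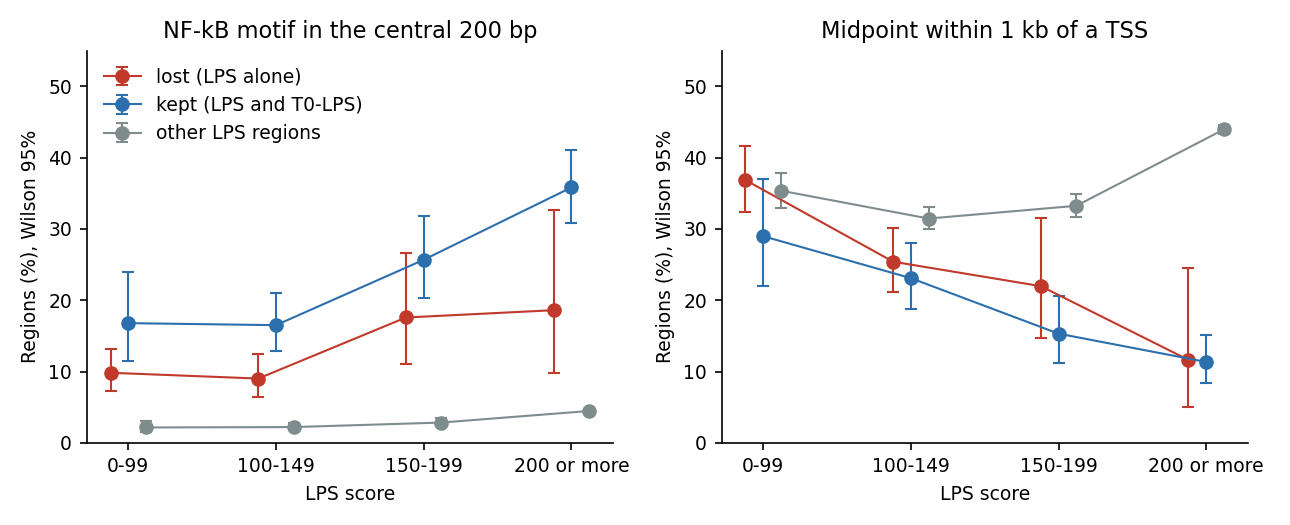
Share of regions with an NF-kB motif in the central 200 bp (left) and with the midpoint within 1 kb of a TSS (right) by LPS score, for lost (red), kept (blue) and other LPS regions (grey), with Wilson 95% intervals. The NF-kB share of lost regions lay between those of kept and other regions in all 4 score ranges, whereas the near-TSS shares of lost and kept regions had overlapping intervals in all 4.

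Matches to NF-kB in lost regions were spread over the window. Of 111 matches in lost regions, counting overlapping matches separately, 62 (55.9%) lay within 50 bp of the peak centre, where 52.9% of the possible positions are. Of 317 matches in kept regions, 215 (67.8%) did. As matches of the same region are not independent, no interval is given. The matches in lost regions comprised 42 different words. The most frequent was gggaaattcc, with 8 matches in lost and 28 in kept regions (7.21% and 8.83% of their matches), the word that also stands at Ifnb1 on the minus strand. The word gggactttcc, as at Il1b, made up 5.41% of matches in lost and 5.68% in kept regions.

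The other motifs differed less between lost and kept regions. C/EBP (TTGCNNAA) was found in 13.6% of lost and 19.4% of kept regions, a difference of -5.86 points (interval -9.16 to -2.54), and in 11.1% of all regions with an LPS peak. Within score ranges the C/EBP difference was -8.41 points below 100 (interval -16.3 to -1.66), and the interval included 0 in the other 3 ranges. AP-1 (TGACTCA) was found in 12.7% of lost, 15.3% of kept and 13.9% of all regions, with a difference between lost and kept of -2.58 points (interval -5.68 to 0.540). The interferon response motif (ISRE, GAAA, 2 bases and GAAA) was found in 7.72% of lost regions against 9.71% of kept regions (difference -1.99, interval -4.52 to 0.555) and 4.03% of all regions. PU.1 (GAGGAAGT) was found in 7.17% of lost and 5.75% of kept regions, against 8.73% of all regions, and STAT (TTCNNNGAA) in 5.95%, 7.63% and 5.53%. CREB/ATF (TGACGTCA) was found in 6 lost and 3 kept regions and in 1.17% of all regions. Matches to NF-kB and AP-1 stood together in 13 lost regions (1.43%) and 43 kept regions (4.26%), a difference of -2.83 points (interval -4.38 to -1.35), and the interval included 0 in each of the 4 score ranges. None of the NF-kB, AP-1, C/EBP, ISRE, PU.1 and STAT motifs was found in 486 lost regions (53.6%) and 376 kept regions (37.3%), a difference of 16.3 points (interval 11.9 to 20.7), against 60.7% of all regions. This difference was 15.2 points below 100 and 8.73 between 100 and 149, and its interval included 0 in the upper 2 ranges.

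For the motifs bound by LXR and other nuclear receptors, the interval of the difference between lost and kept regions included 0. The nuclear receptor half-site (AGGTCA) was found in 12.7% of lost, 12.3% of kept and 11.4% of all regions with an LPS peak, and the difference between lost and kept was 0.390 points (interval -2.57 to 3.38). DR4, a pair of such half-sites in the same direction 4 bp apart with up to 2 mismatches, was found in 17 lost regions (1.87%), 23 kept regions (2.28%) and 1.92% of all regions, with a difference of -0.405 points (interval -1.72 to 0.935). In 12 lost regions a DR4 match overlapped a half-site match. The CTCF consensus was found in 11 lost (1.21%) and 3 kept regions (0.297%), a difference of 0.915 points (interval 0.132 to 1.88), and in 0.822% of all regions, and the interval included 0 in each of the 4 score ranges.

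**Figure D3:**
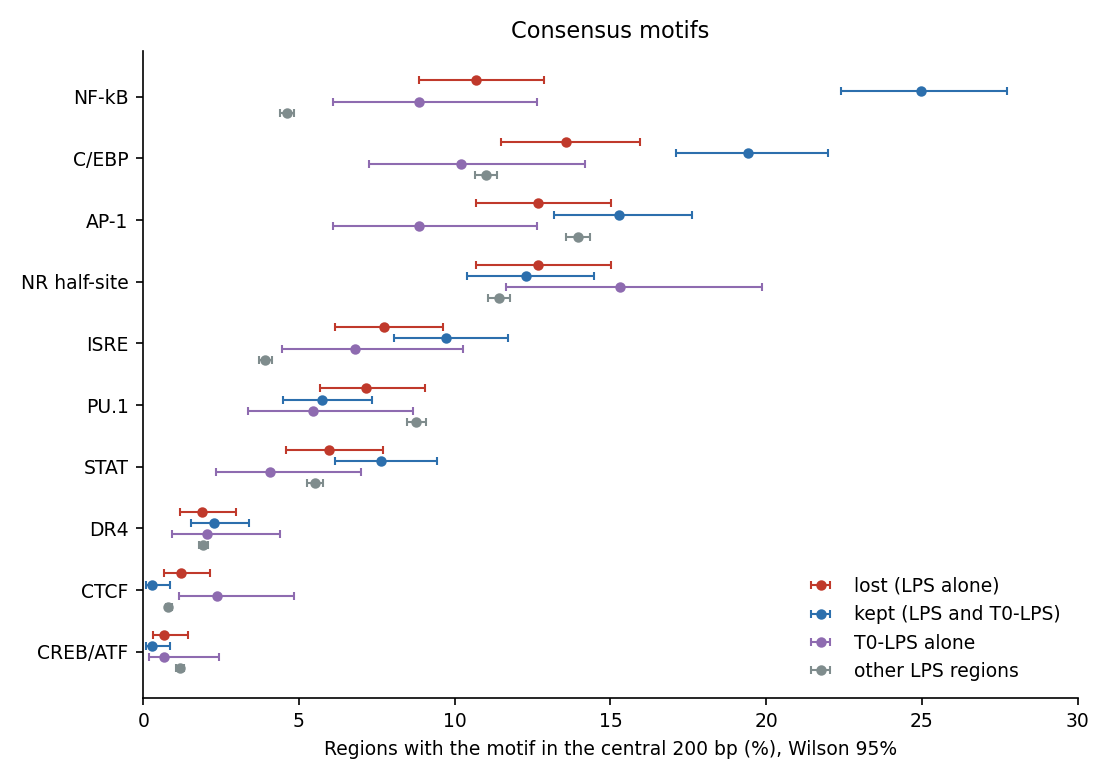
Share of regions with each consensus motif in the central 200 bp, with Wilson 95% intervals, for lost regions (red), kept regions (blue), regions with a T0-LPS peak alone (purple) and other LPS regions (grey). NF-kB shows the widest spread, with 10.7% of lost and 24.98% of kept regions, and half-site shares run from 11.4% to 15.3%.

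Lost regions were scattered over the genome. They formed 844 groups when those within 50 kb were joined, of which 785 were single regions, 55 pairs and 4 triplets. The triplets lay at Tmem72, at Btg1, a gene of growth arrest, at Cuedc1, Srsf1 and Vezf1, and at Slc31a2 and Zfp37. A kept region lay within 50 kb of 168 lost regions (18.5%, interval 16.1 to 21.2%), against 25.3% of kept regions with another kept region and 13.2% of all regions with an LPS peak other than kept regions. Among chromosomes with more than 1 lost region, the share lost of the regions with an LPS peak ran from 2.04% on chromosome 18 to 4% on chromosome 19 (42 of 1050, interval 2.97 to 5.36%).

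Lists of genes of the LPS response, LXR targets and control genes were used to ask whether lost regions lay within 100 kb of their TSS. Such a region was found at 55 of 162 genes of the 7 inflammatory lists (34.0%, interval 27.1 to 41.5%), against 13.2% of 21938 protein-coding genes. A kept region was found at 74 (45.7%) against 13.3% of all protein-coding genes, and 30 genes had both. The other lists also lay above 13.2% for lost regions. Their shares were 42.9% for macrophage lineage genes, 31.6% for LXR targets, 28.6% for genes of other lineages and 15% for housekeeping genes. As neighbouring genes share regions, the 55 genes rested on 57 distinct lost regions, of which 33 had no room in any other list, and the 74 on 103 distinct kept regions. The lists were chosen with earlier results of these data known, so the shares describe these lists and are not independent evidence.

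LPS-opened regions near these genes were lost less often than elsewhere, though not in every score range. Of 160 LPS-opened regions within 100 kb of a listed inflammatory gene, 57 were lost (35.6%, interval 28.6 to 43.3%), against 850 of 1758 elsewhere (48.4%), a difference of -12.7 points (interval -20.1 to -4.70). Below a score of 100 the order turned, with 83.8% (31 of 37) against 74.0%, a difference of 9.77 points (interval -5.59 to 19.2). Between 100 and 149 the shares were 36% and 55.1% (difference -19.1, interval -31.5 to -4.67). Between 150 and 199 they were 26.9% and 29.3% (difference -2.35, interval -16.7 to 17.4), and from 200 upwards 2.13% (1 of 47, the region at Ptgs2) and 12.7% (difference -10.6, interval -14.9 to -1.04). Of the 43 lost regions from 200 upwards, 40 had room in the T0-LPS list. As the lists were chosen with earlier results known, these differences are a description and were not tested. NF-kB was found in 11 of the 57 lost regions near these genes (19.3%, interval 11.1 to 31.3%) and in 10.1% of the other 850, and in 38.8% and 23.4% of the corresponding kept regions.

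**Figure D4:**
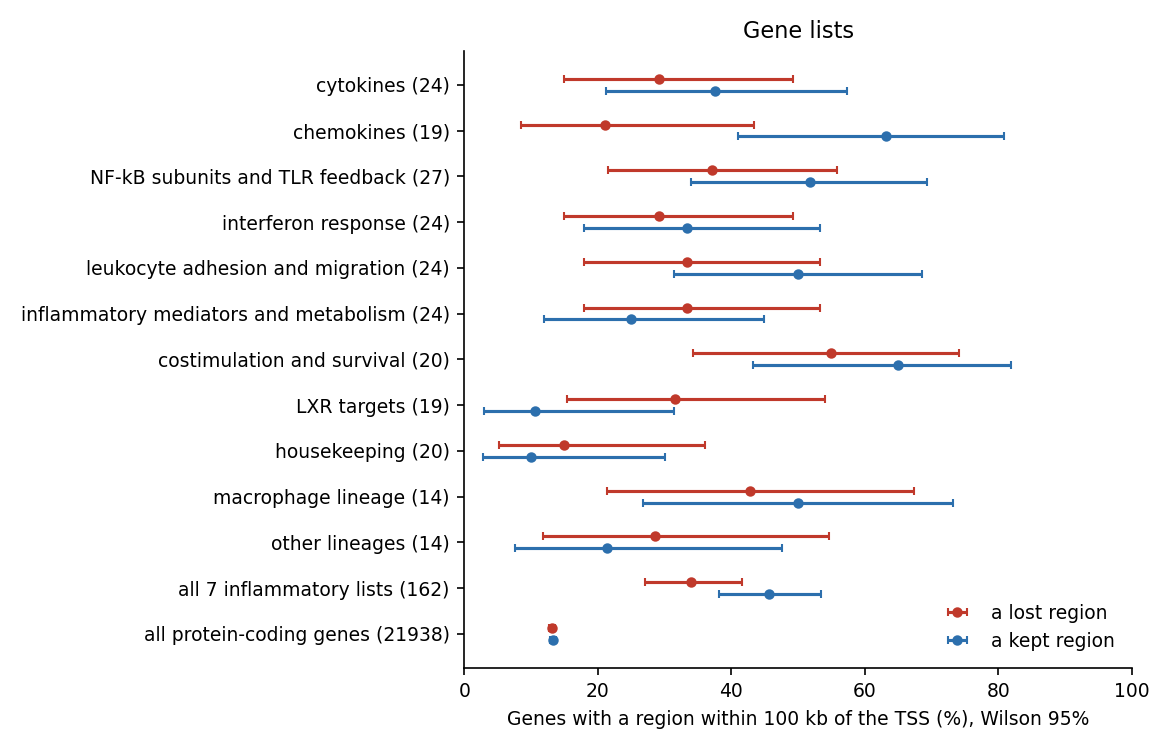
Share of the genes of each list with a lost (red) or kept (blue) region within 100 kb of the TSS, with Wilson 95% intervals and the number of genes in parentheses. For lost regions all 7 inflammatory lists and all 4 other lists lie above the 13.2% of all protein-coding genes at the bottom, housekeeping genes least (15%), and the intervals of single lists are wide.

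Among cytokine genes, 7 of 24 had a lost region and 9 a kept region. The share with a lost region, 29.2%, compares with 13.2% of all protein-coding genes and 28.6% of genes of other lineages. Il12a, which encodes a subunit of interleukin-12, had 2 lost regions, in an intron 660 bp downstream of the TSS (chr3:68691215-68691394, score 82) and 52.5 kb upstream (score 89), both with room in all other lists, and no kept region. The region at Ifnb1 had no room in Veh or T0 but 1 missing number in T0-LPS. That at Il1b also lay 71.0 kb upstream of Il1a, had no room in any list, and neither gene had a kept region. Il10, which encodes an anti-inflammatory cytokine, had a lost region 30.4 kb downstream with an NF-kB match (score 139) and a kept region 4.30 kb upstream with a score of 297. The lost region at Il10 had room in T0 and T0-LPS.

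Among chemokine genes, 4 of 19 had a lost region and 12 a kept region. The 4 rested on 3 lost regions, all with no room. Cxcl9 and Cxcl10, interferon-induced ligands of the same receptor, shared 2 of them and had no kept region. The stronger lay in an intron of Art3 (chr5:92370439-92370641, score 130), 21.7 kb upstream of Cxcl10 and 5055 bp from the TSS of Cxcl11. Cxcl11 is a chemokine gene annotated as a polymorphic pseudogene and so was not counted in the list. The weaker lay 69.0 kb downstream of Cxcl10 (score 72). Ccl3 and Ccl4 shared the remaining lost region (score 158), 94.4 kb upstream of Ccl3.

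Genes of NF-kB subunits and TLR feedback had a lost region in 10 of 27 cases, 9 of which also had a kept region. Of the 14 distinct lost regions, 12 had no room. At Tnfaip3, which encodes the ubiquitin-editing inhibitor A20, lost regions with scores of 149 and 47 lay 52.9 and 31.9 kb upstream, and kept regions with scores of 348 and 397 lay 62.5 and 30.5 kb upstream. At Nfkbia, the gene of the NF-kB inhibitor IkB alpha, lost regions lay 27.6 and 99.3 kb downstream with scores of 78 and 93, and kept regions with scores of 104 and 134. The lost region at 99.3 kb, in an intron of Psma6 (chr12:55393186-55393582), held an NF-kB match. Traf1, an adaptor of TNF receptors, had lost regions 7.91 and 48.3 kb downstream (scores 93 and 96) and a kept region 3.53 kb downstream (score 255). Socs3, which encodes an inhibitor of cytokine signalling, had 2 lost regions with scores of 67 and 91 and 3 kept regions with scores from 121 to 445. Relb, the gene of an NF-kB subunit, had a lost region 92 bp downstream of its TSS in an untranslated region (chr7:19629113-19629580, score 97) with no room in any list, and no kept region.

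At Tnfaip3, Nfkbia, Traf1 and Socs3 each kept region had a higher score than each lost region. Other listed genes with both kinds went the other way, such as Gadd45b and Gbp2. Their highest lost scores were 194 and 138, against highest kept scores of 190 and 129. The map of LPS-opened regions around 11 genes, all of which had a lost region, shows the order of the regions along the loci.

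**Figure D5:**
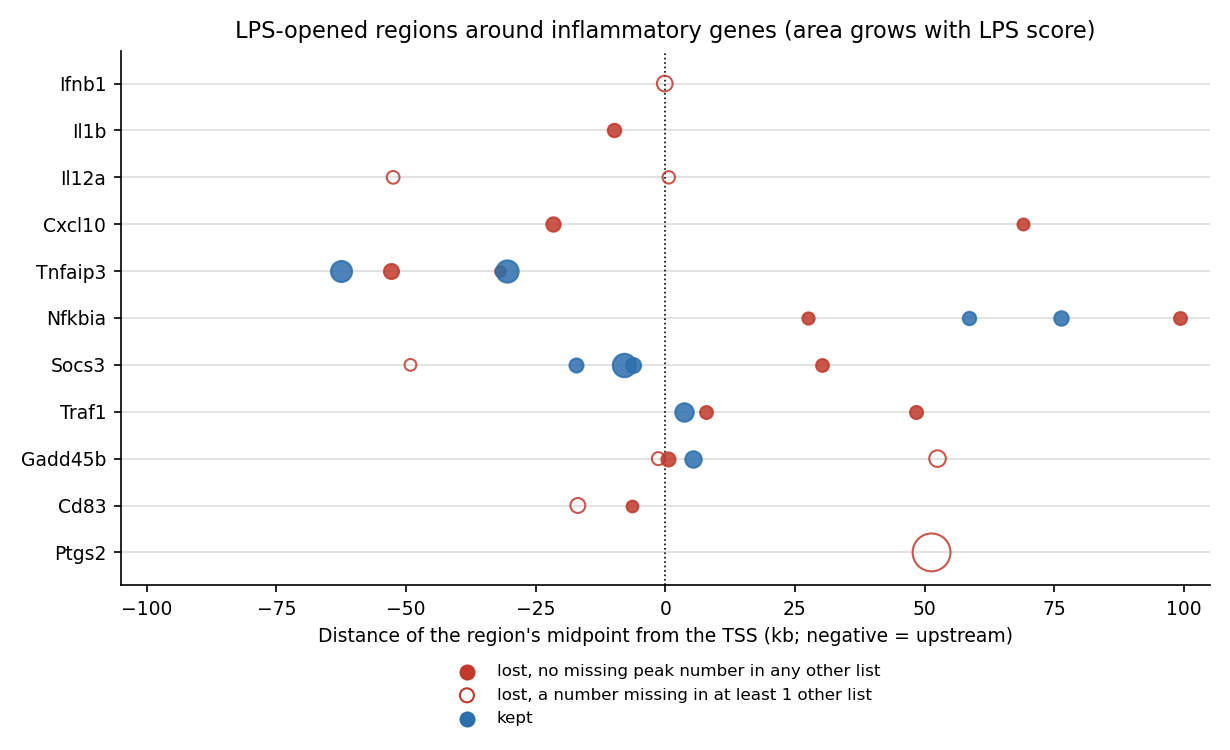
Position of lost (red) and kept (blue) regions relative to the TSS of 11 inflammatory genes, in kb, with negative values upstream and point size growing with the LPS score. Filled red points had no missing peak number in any other list and open red points had one in at least 1 list. The point at Ptgs2, with a score of 1259, is the largest and is open. Each of the 11 genes had a lost region. Listed genes with kept regions only, such as Tnf and Tnip1 with 5 each, are not shown.

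Of the interferon response genes, 7 of 24 had a lost region, on 6 distinct regions. A lost region 783 bp upstream of Gbp2, a guanylate-binding protein gene (chr3:142619730-142619908, score 138), had room in all lists and also lay within 100 kb of Gbp3, whose own TSS had a kept region 105 bp upstream (score 129). Lost regions near Ifi205 and Oasl1, further interferon-induced genes, had scores of 99 and 94.

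Of the genes of leukocyte adhesion and migration, 8 of 24 had a lost region and 12 a kept region. Fpr1 and Fpr2, which encode receptors of formylated bacterial peptides, shared a lost region in an intron of Fpr1 with no room (chr17:17882729-17882959, score 130) and 3 kept regions with scores from 107 to 430. Ccr7, which encodes a chemokine receptor of migration to lymph nodes, had 1 lost (score 125) and 1 kept region (264), and the integrin gene Itga5 had 1 lost region (121), with an NF-kB match, and no kept region.

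Of the genes of inflammatory mediators and metabolism, 8 of 24 had a lost region and 6 a kept region. Besides Ptgs2, these included Ptges, the gene of an inducible prostaglandin E synthase, with 1 lost region 35.9 kb upstream (score 110) and 3 kept regions, and Ptger2, a prostaglandin E2 receptor gene, with 1 lost region (score 101) and none kept. Mmp14, a matrix metalloproteinase gene, had a lost region 80.3 kb upstream (score 126).

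The list of costimulation and survival genes had the highest share, 11 of 20 (55%, interval 34.2 to 74.2%), with 13 of 20 having a kept region. Gadd45b, a stress-induced gene, was among 33 protein-coding genes that had 3 lost regions, the most found, of which the 10 with the highest summed score are named. Its lost regions lay 1341 bp upstream (score 95), in an intron 481 bp downstream (chr10:80930460-80930649, score 122, with an NF-kB match and no room) and 52.5 kb downstream in an intron of Gng7 (score 194, room in T0-LPS). A kept region lay 5.42 kb downstream with a score of 190. Diras1, Gng7, Lmnb2 and Timm13 were on this list through the same 3 regions. Cd83, a marker of activated antigen-presenting cells, had 2 lost regions 16.9 and 6.47 kb upstream, with scores of 144 (room in all lists) and 68 (no room). Cd80, a costimulatory ligand, had 1 (score 199, room in all lists), and neither gene had a kept region. Fas, a death receptor gene, had a lost region in an intron of Acta2 (score 174, room in Veh and T0-LPS) and a kept region (400).

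The remaining genes named among those with 3 lost regions were Wdr59 and Znrf1, which shared regions with scores of 859, 390 and 81, Mbp (931, 91 and 86), Spdef (143, 135 and 118) and Fosb, which encodes an AP-1 subunit (201, 93 and 85). The T0-LPS list had room at all 3 regions of Wdr59, Znrf1 and Spdef, and at 0 of the 3 of Fosb.

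LXR target genes had a lost region in 6 of 19 cases (31.6%, interval 15.4 to 54.0%) and a kept region in 2 (10.5%, interval 2.94 to 31.4%), on 5 distinct lost regions, 4 of which had no room. They included Abca1, which encodes a cholesterol efflux transporter, with a lost region 41.9 kb upstream (chr4:53201667-53201892, score 97, no room), Lpl, the gene of lipoprotein lipase (score 110), and Elovl5, a fatty acid elongase gene (score 110). Apoe and Apoc1, apolipoprotein genes, shared the region at the TSS of Relb. Pltp, the gene of phospholipid transfer protein, had a lost region 78.4 kb upstream, 12.1 kb from a TSS of Mmp9 (score 423, room in all lists). Lost regions were found at 3 of 20 housekeeping genes, such as Rps18 (score 147), 6 of 14 macrophage lineage genes, including Cebpb (score 89) and Cd14 (score 280), and 4 of 14 genes of other lineages, such as Ms4a1. The region at Cd14 had room in Veh and T0-LPS.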

How the data were processed

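ATAC-seq was carried out on 4 libraries per group by the submitters, whose methods name cutadapt for adaptors, Bowtie2 for alignment, SAMtools for the removal of duplicates and MACS2 for peaks, run on the pooled libraries of a group. Peaks at enhancers marked in published macrophage ChIP-seq were kept. The deposited lists gave each peak's position, name and score, a value of the authors' peak caller that grows with depth. The processing notes name mm10, and all peaks on the 21 main chromosomes ended within GRCm38 lengths. Depth per library is not given in the sources used here, and intervals cover counting error only.

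Peaks sharing at least 1 bp were merged. The LPS peak of a region gave its score, midpoint and central 200 bp. Consensus motifs were searched on both strands, with overlapping matches counted as 1 site where sites were counted. Genes were those of GENCODE vM21 basic. Of the 164 listed inflammatory genes, 162 were found by symbol. Wilson and Newcombe 95% intervals were computed in Python 3 with numpy and scipy. Scripts were tested on simulated lists and planted motifs. The lost regions, gene lists and motifs were chosen with earlier results of these data known. Regions named were the 10 of highest score, the 10 of highest score with no room and those at Il1b and Ptgs2, and genes named were, per list, up to 4 with the most lost regions, plus the 10 with the most among all protein-coding genes, ties ordered by summed score. Promoter regions and Relb were named after their values were seen. The result for 1 listed gene is not reported here.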

Additional observations from a re-analysis of the deposited data

How the results depend on the processing

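Libraries were pooled in each list, so no library could be left out, and no paired analysis was possible because the lists pool the 4 libraries of each group. The number of lost regions stayed between 735 and 1359 under other ways of merging and thresholds, and was 454 with no room required in the other 3 lists and 43 with an LPS score of at least 200. The median score of lost regions was 126 with only peaks scoring at least 100, 138 with lists shortened to equal length, 101 with no room and 306 with a score of at least 200, and the number with no room was 234, 145 and, with a score of at least 200, 2. The share within 1 kb of a TSS was 37.0% under a reciprocal overlap of 50%, 24.9% with lists shortened and 11.6% with a score of at least 200, and 19.3% and 53.1% with windows of 500 bp and 5 kb. Its difference from kept regions fell from 11.2 points to 5.26 with lists shortened and to 0.285 with a score of at least 200. The NF-kB share was 7.76% with lists shortened, 18.6% with a score of at least 200 and 5.73% in the central 100 bp, and the AP-1 share 16.3% and 8.38% in the last 2 of these. The NF-kB difference between lost and kept regions was negative under all 11 alternatives, from -19.2 to -10.6 points. The AP-1 difference turned to 3.14 points (interval -5.96 to 17.2) with a score of at least 200, and was -5.94 points (-9.25 to -2.59) in the whole LPS peak, -2.53 (-5.03 to -0.0349) under a reciprocal overlap and -3.38 (-6.66 to -0.0935) with scores of at least 100, where, unlike in the value reported, the interval excluded 0. The median distance to a Veh peak was 577 bp under a reciprocal overlap, 1196.5 bp with scores of at least 100, 201 bp with lists shortened, 1353.5 bp with no room and 6435 bp with a score of at least 200. Distance and room were always measured against the full lists. Under the first 3 of these settings a lost region could thus overlap a full-list peak of another group. An overlapped Veh peak shortens the median distance, and a region with any such overlap was not counted as having no room. Inflammatory genes with a lost region numbered 34 with no room, 1 with a score of at least 200 and 23 with a window of 10 kb. The cause of these moves was not tested.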
